A study of Mus musculus with 6 samples.

Results

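The gene set described here is a panel of 30 markers and regulators of neural stem cells (NSCs), chosen by name and read in every RNA-seq library of adult mouse NSC cultures from mice with and without a cre transgene that targets *Tet3*. All 30 symbols matched a single row each of a count table of 49671 genes. The study deleted *Tet3*, a dioxygenase that oxidises 5-methylcytosine, in cells that express *Gfap*. Both groups of mice were on a C57BL6 background. *Tet3-Gfap cre* mice carried loxP sites around part of *Tet3* (*Tet3* loxp/loxp) and Gfap-cre +/0, and *Tet3-Gfap control* mice carried the same floxed alleles with Gfap-cre 0/0. Cre was driven by a mouse *Gfap* cassette, so only cells with a history of *Gfap* promoter activity could lose the floxed exon, and that lineage includes astrocytes as well as NSCs. Cells of the subventricular zone (SVZ) of adult mice were dissociated and grown as neurospheres, floating clones kept in EGF and FGF. Each independent culture pooled a pair of animals. The 6 libraries were labelled cre 1 to 3 and control 1 to 3, and it is not stated whether they came from separate cultures, and p-values reflect only how far these samples scatter, which may be technical variation.

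Adult NSCs of the SVZ are astrocyte-like cells that switch between quiescence and division and give rise to neuroblasts of the olfactory bulb. SOXB1 factors hold the progenitor state together with POU-domain partners, *Nr2e1* (Tlx) and the repressor REST keep neuronal and exit programmes off, and the LIN28/let-7/HMGA axis sets the developmental age of the progenitor. Quiescent cells in the niche carry surface proteins such as VCAM1, CD9, LRIG1 and prominin-1, while nestin, vimentin and the fatty acid binding protein FABP7 mark stem and progenitor cells in general.

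The libraries held between 29660398 and 35405326 counts. *Tet3*, the targeted gene, was at 61.2, 60.5 and 116 CPM (counts scaled to the same library total) in the libraries labelled cre 1, 2 and 3, against 114, 136 and 60.2 CPM in those labelled control 1, 2 and 3. The library labelled cre 3 thus had a *Tet3* level like controls 1 and 2, and the library labelled control 3 had one like cre 1 and 2. Names such as cre 3 and control 3 give a library's label only. Whether the labels of these 2 libraries were exchanged was not tested, and any fold change, mean or range given by the labels rests on them as they stand. Counts covered the whole gene, so transcripts that lack only the deleted exon still counted. Each comparison was therefore fitted with all 6 libraries by their labels and again with cre 1, cre 2, control 1 and control 2 alone, called the 4 libraries. The cultures had transcripts of neural stem and progenitor cells, with *Sox2* at 165 to 199 CPM, *Pax6* at 30.3 to 36.4 CPM and *Msi1* at 38.5 to 44.9 CPM over the 6 libraries. *Gfap*, by which the paper also identifies NSCs, was low, at 0.280 to 6.61 CPM. In bulk RNA, fewer cells of a type and less RNA per cell cannot be told apart.

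Levels between genes were compared as CPM per kilobase (kb) of merged exon, averaged over the 6 libraries. *Fabp7* was the most abundant of the 30 genes, at 1666 CPM per kb, and *Vim*, which encodes vimentin, followed at 732 CPM per kb. *Ptprz1*, a receptor phosphatase of the radial glial surface, and *Nes*, the intermediate filament nestin, stood at 261 and 244 CPM per kb. *Nes* stood at percentile 98.8 of all tested genes on this scale, with the other 3 above it. *Lrig1*, a negative regulator of EGF receptor signalling, had 95.05 CPM per kb and *Sox2* had 90.4 CPM per kb. *Lrig1* and *Sox2* overlapped over the libraries, as did *Ptprz1* and *Nes*. A middle group ran from *Sox3* at 56.2 CPM per kb down to *Sox5* at 3.68 CPM per kb. *Hopx* had 3.40, *Vcam1* 2.04 and *Prom1* 1.76 CPM per kb. The lowest of the tested genes were *Nr2f2* at 0.517, *Fut4* at 0.437 and *Thbs4* at 0.224 CPM per kb. The quiescence markers were spread over this order, with *Lrig1* and *Cd9* among the 8 most abundant genes and *Hopx*, *Vcam1* and *Thbs4* among the lowest.

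**Figure D1:**
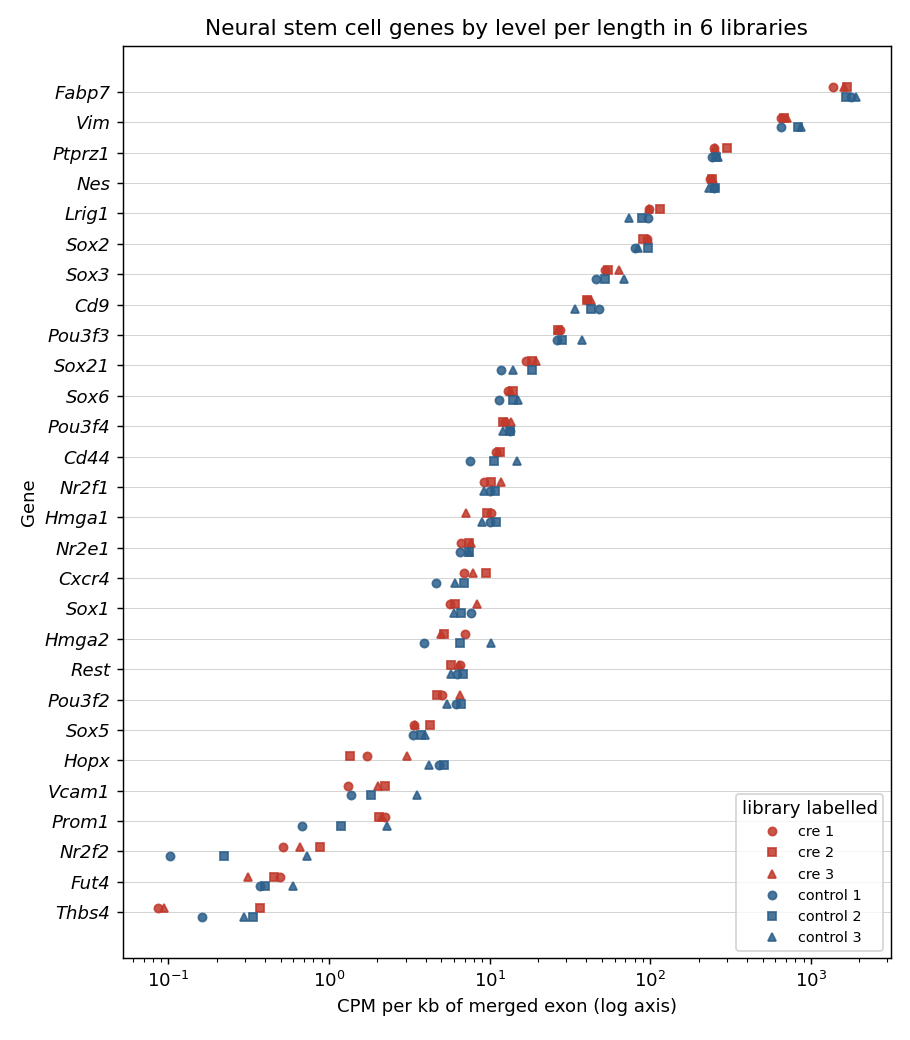
Level of the 28 tested genes as CPM per kb of merged exon (log axis), with 1 point per library, cre in red above control in blue, ordered by the mean. *Fabp7* leads at a mean of 1666 CPM per kb and *Thbs4* is lowest at 0.224, and the widest scatter between libraries is in *Nr2f2*, *Prom1*, *Hopx* and *Thbs4*.

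The main comparison asked whether the NSC panel differed between *Tet3-Gfap cre* and *Tet3-Gfap control* cells. A total of 28 genes passed the count filter; *Lin28a* and *Lin28b* did not. By the labels, 0 of the 28 passed an adjusted p of 0.05 in edgeR's quasi-likelihood test, where 0% of all 16916 tested genes did. At an unadjusted p under 0.05 there were 3 genes (*Hopx*, *Lrig1* and *Cxcr4*), where 5% of all tested genes were at that level. DESeq2 called 1 of the 28, *Hopx*, where it called 70 of all 16916 tested genes. Limma-voom called 0 of the 28. Log2 fold changes of cre over control had a median of -0.01 over the 28 genes and -0.005 over all tested genes, with 13 above and 15 below 0. With the 4 libraries edgeR called 1 of the 28, *Hopx*, lower in cre, where 0.247% of 17003 tested genes were called lower and 0.459% in either direction. At an unadjusted p under 0.05 there were 5 genes (*Hopx*, *Nr2f2*, *Prom1*, *Pou3f2* and *Sox1*), against 11.2% of all tested genes. The median was 0.03 over the panel and -0.0005 over all tested genes, with 15 above and 13 below 0. Most differences were small: 24 of the 28 log2 fold changes lay within 0.5 of 0 by the labels and 25 did so in the 4 libraries. The standard error of a gene's log2 fold change had a median of 0.14 by the labels and 0.11 in the 4 libraries.

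**Figure D2:**
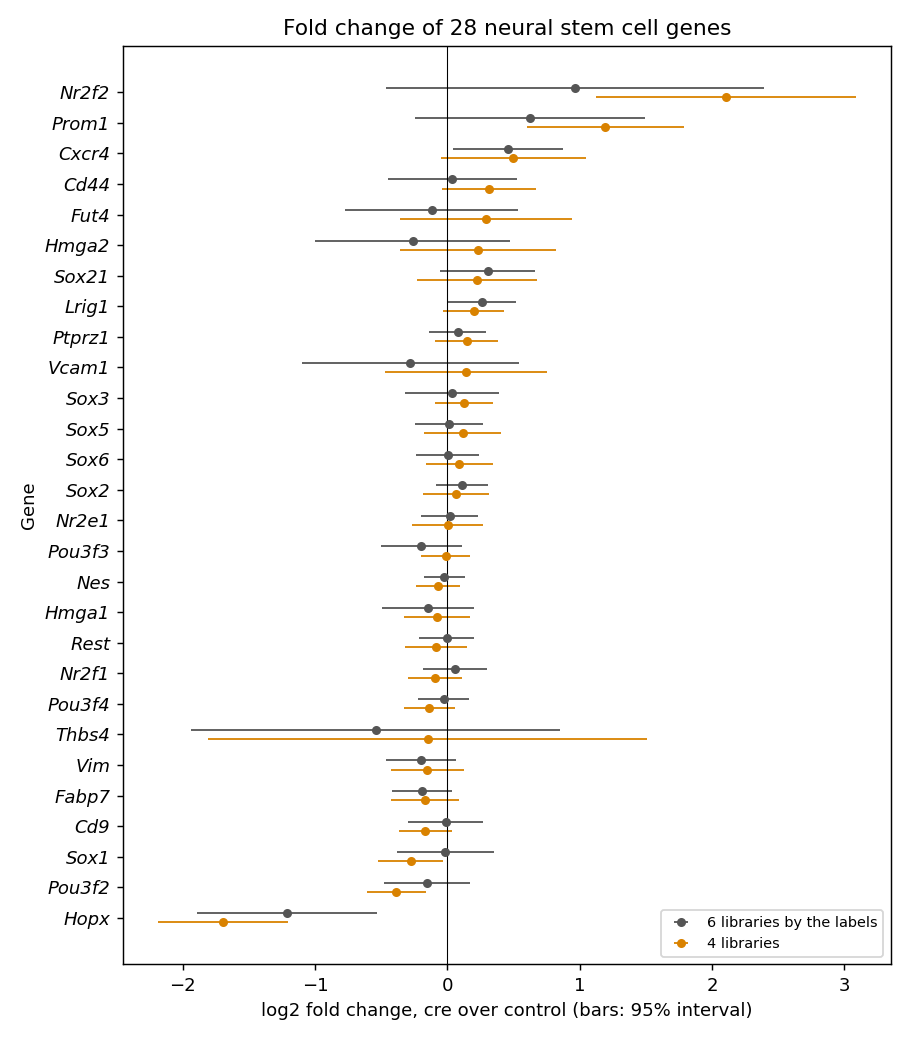
Log2 fold change of cre over control with its 95% interval for the 28 tested genes, from edgeR, with all 6 libraries by the labels in grey and the 4 libraries in orange. *Hopx* is at -1.21 by the labels and -1.70 in the 4 libraries, *Nr2f2* and *Prom1* are at the other end, and 25 intervals by the labels and 23 in the 4 libraries include 0.

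*Hopx* had the lowest fold change of the panel in both fits and was the only member called by edgeR in the 4 libraries. It encodes an atypical homeodomain protein without DNA binding of its own, used as a marker of quiescent stem cells and outer radial glia. *Hopx* (ENSMUSG00000059325, chr5:77086988-77115121 of GRCm38) had 2.62, 2.05 and 4.63 CPM in cre 1, 2 and 3, against 7.35, 7.87 and 6.37 CPM in control 1, 2 and 3. The counts behind these were 93, 60 and 149 in the cre libraries, against 234, 265 and 216 in the control libraries. All 3 libraries labelled cre lay below all 3 labelled control, and cre 3 was the highest of the cre libraries and control 3 the lowest of the controls. The mean was 3.10 ± 1.35 CPM in cre and 7.20 ± 0.757 CPM in control (SD, n = 3 each). By the labels the log2 fold change was -1.21 (SE 0.29), with an edgeR adjusted p of 0.707. Over the 4 libraries *Hopx* was 0.308-fold of control, a log2 fold change of -1.70 (SE 0.21, 95% interval -2.19 to -1.21), with an edgeR adjusted p of 0.0318. Without control 1 the edgeR adjusted p was 0.0746 and without control 2 it was 0.0646, with log2 fold changes of -1.75 and -1.65. Over 27.2% of its merged exon length *Hopx* shares its position with *Hopxos* on the opposite strand, and *Hopxos* itself had 0 or 1 count in every library.

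The sequences just upstream of *Hopx* are shown because *Hopx* was the member called and the study concerns a 5-methylcytosine oxidase; the deposited counts hold no methylation values. They are the 250 bases before each of 2 RefSeq start sites (GRCm38.p6), written 5′ to 3′ on the gene's strand, with each CG dinucleotide in capitals.
Hopx promoter, chr5:77095268-77095517, minus strand: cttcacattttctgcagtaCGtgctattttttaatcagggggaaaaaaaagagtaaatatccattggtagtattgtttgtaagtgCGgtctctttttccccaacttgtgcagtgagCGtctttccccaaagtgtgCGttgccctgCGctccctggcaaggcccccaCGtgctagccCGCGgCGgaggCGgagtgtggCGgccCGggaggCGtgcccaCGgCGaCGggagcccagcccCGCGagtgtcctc
Hopx promoter, chr5:77115124-77115373, minus strand: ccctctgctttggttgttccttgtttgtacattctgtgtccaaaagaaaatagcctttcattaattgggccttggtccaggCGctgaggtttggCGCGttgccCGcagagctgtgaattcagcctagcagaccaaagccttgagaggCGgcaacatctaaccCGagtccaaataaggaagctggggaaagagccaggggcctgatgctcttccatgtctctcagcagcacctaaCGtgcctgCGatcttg
The first window holds 18 CG dinucleotides and the second holds 8, where the median over 32851 mouse windows of the same length was 6. The first also holds AACAAT, a core SOX motif searched on both strands, which 9.42% of all windows hold. A match of letters is a description of the window and not a binding site. The first window lies inside the annotated span of *Hopx*, and whether either window acts as a promoter was not tested.

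The other quiescence markers grouped here, *Lrig1*, *Cd9*, *Vcam1* and *Thbs4*, gave no call in either fit. *Prom1*, also named above for quiescent cells, is described with the surface markers below. In the 4 libraries *Prom1* was higher in cre, at a log2 fold change of 1.19 (edgeR adjusted p 0.124), and DESeq2 called it. DESeq2 called 478 of 17003 tested genes there, against 78 in edgeR. *Lrig1* (ENSMUSG00000030029, chr6:94604529-94700158), which restrains EGF receptor signalling in NSCs, had 547, 640 and 550 CPM in cre 1, 2 and 3, against 539, 495 and 414 CPM in control 1, 2 and 3. The 3 cre libraries lay above the 3 control libraries, but cre 1 and control 1 differed by little. Its log2 fold change was 0.26 (SE 0.11, edgeR adjusted p 0.990) by the labels and 0.20 (SE 0.10, adjusted p 0.541) in the 4 libraries. *Cd9*, a tetraspanin used to sort quiescent NSCs, had 82.6, 82.7 and 87.6 CPM in cre against 98.4, 87.2 and 69.6 CPM in control, with control 3 the lowest of all 6 libraries. *Vcam1*, an adhesion molecule that anchors NSCs at the ventricular surface, had 11.6, 19.6 and 17.9 CPM in cre against 12.1, 16.1 and 31.3 CPM in control. The groups of both genes overlapped, and the library labelled control 3 was at an extreme of each. *Thbs4*, a secreted matrix glycoprotein of SVZ astrocytes, was low, at 0.282, 1.23 and 0.311 CPM in cre against 0.534, 1.10 and 0.974 CPM in control, and its 95% interval by the labels was -1.94 to 0.85 log2 units. This interval was the widest of the quiescence markers. The counts behind it were 10, 36 and 10 in cre against 17, 37 and 33 in control, and without cre 2 the log2 fold change by the labels was -1.54 in place of -0.54.

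**Figure D3:**
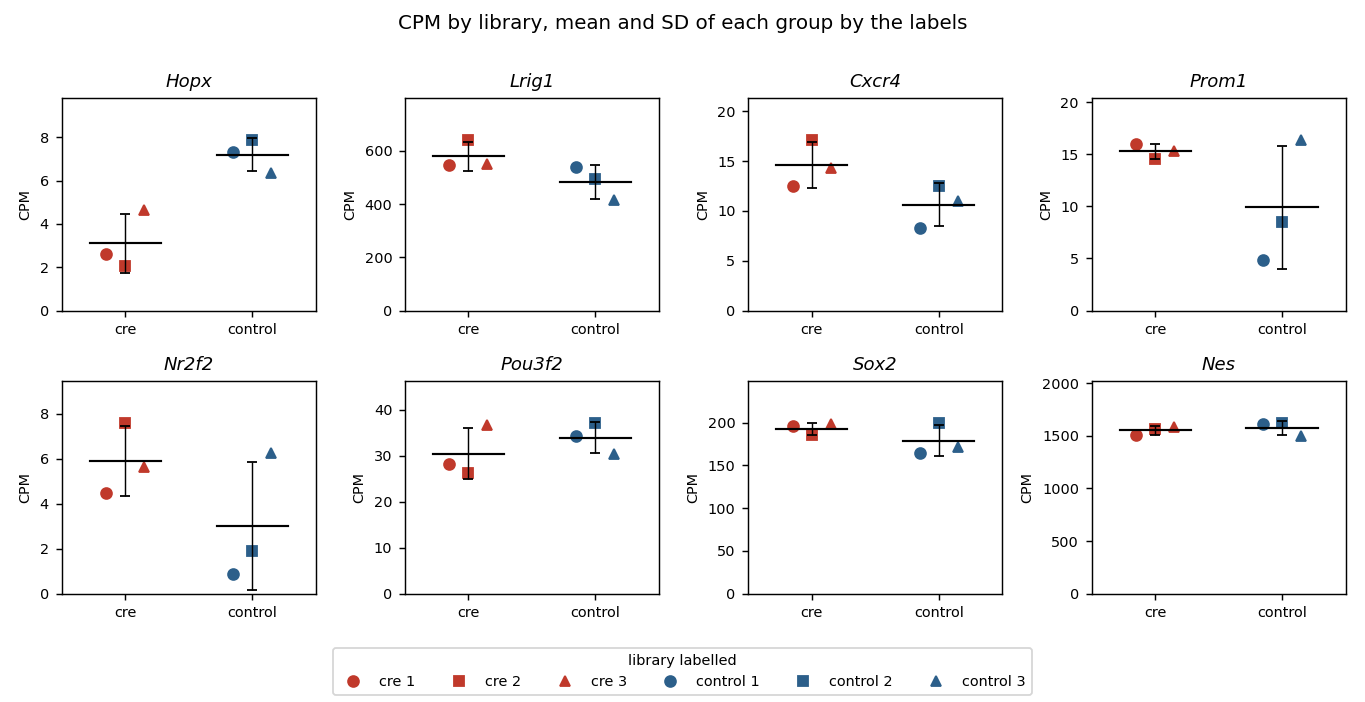
CPM of 8 genes in each library labelled cre (left, red) and control (right, blue), with the mean and SD of each group by the labels. *Hopx* is below control in every cre library, *Prom1* and *Nr2f2* are low in control 1 and 2 and high in control 3, and *Sox2* and *Nes* are at near-equal levels in both groups.

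Among the filament and surface markers, *Nes*, the defining filament of neural progenitors, varied least. *Nes* (ENSMUSG00000004891, chr3:87971078-87980451) had 1506, 1565 and 1582 CPM in cre 1, 2 and 3, against 1608, 1618 and 1500 CPM in control 1, 2 and 3. Its highest library was 1.08-fold of its lowest, and the 95% interval of the log2 fold change was -0.18 to 0.13 by the labels and -0.24 to 0.09 in the 4 libraries. *Vim*, the vimentin filament of astroglia and progenitors, had 3101, 3229 and 3371 CPM in cre against 3096, 3927 and 4118 CPM in control. Controls 2 and 3 were above every other library and control 1 was the lowest, so the groups overlapped (log2 fold change -0.20, SE 0.11, edgeR adjusted p 1). *Fabp7*, a lipid carrier of radial glia, had 1716, 2107 and 2005 CPM in cre against 2215, 2077 and 2374 CPM in control, with cre 2 above control 2 (log2 fold change -0.19, SE 0.10, edgeR adjusted p 1). *Ptprz1*, the receptor for pleiotrophin, had 3549, 4274 and 3615 CPM in cre against 3428, 3643 and 3774 CPM in control, and its interval by the labels was -0.14 to 0.30.

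*Prom1* encodes prominin-1 (CD133), a protein of membrane protrusions and primary cilia by which SVZ stem cells are sorted. *Prom1* (ENSMUSG00000029086, chr5:43993620-44102032) had 16.0, 14.6 and 15.3 CPM in cre 1, 2 and 3, against 4.83, 8.52 and 16.4 CPM in control 1, 2 and 3. The 3 cre libraries were close to each other, whereas the controls covered a 3.38-fold range from control 1 to control 3, the lowest and the highest of the 6. By the labels the log2 fold change was 0.63 (SE 0.37, edgeR adjusted p 1). Over the 4 libraries it was 1.19 (SE 0.25, 95% interval 0.60 to 1.79) with an edgeR adjusted p of 0.124. DESeq2, which called 478 of 17003 tested genes there, gave an adjusted p of 0.00114. Without control 2 the edgeR log2 fold change was 1.66, and without control 1 it was 0.84. Each of these fits rests on a single control library.

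*Cxcr4*, the receptor for the niche chemokine CXCL12, had 12.5, 17.1 and 14.3 CPM in cre 1, 2 and 3, against 8.32, 12.5 and 11.01 CPM in control 1, 2 and 3. Cre 1 and control 2 met at 12.5 CPM, and the other cre libraries were above every control. The log2 fold change of *Cxcr4* was 0.46 (SE 0.18, edgeR adjusted p 0.974) by the labels and 0.50 (SE 0.23, adjusted p 0.507) in the 4 libraries. *Cd44*, the hyaluronan receptor, had 74.4, 78.4 and 76.0 CPM in cre against 51.1, 71.6 and 100 CPM in control, so the cre values fell inside the control range. *Fut4*, a fucosyltransferase that can make the LeX (SSEA-1) epitope of progenitors, had 2.00, 1.84 and 1.27 CPM in cre against 1.51, 1.63 and 2.42 CPM in control. Its relative *Fut9* was more abundant, at a mean of 3.99 CPM per kb against 0.437 for *Fut4*. The *Fut4* level therefore does not stand for the epitope. For *Cd44* and *Fut4* the library labelled control 3 was the highest of the 6.

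The 6 SOX factors had log2 fold changes of -0.01 to 0.30 by the labels and -0.28 to 0.22 in the 4 libraries, and none was called in either fit. *Sox2* (ENSMUSG00000074637, chr3:34650405-34652461), the SOXB1 factor that NSCs need for self-renewal, had 196, 185 and 198 CPM in cre 1, 2 and 3, against 165, 199 and 172 CPM in control 1, 2 and 3. The mean was 193 ± 6.95 CPM in cre and 179 ± 18.0 CPM in control (SD, n = 3 each). The 95% interval of its log2 fold change was -0.08 to 0.31 by the labels and -0.19 to 0.31 in the 4 libraries. Its SOXB1 relatives *Sox1* and *Sox3*, which act redundantly with it, were less even between libraries. *Sox1* had 27.5, 29.5 and 40.1 CPM in cre against 36.9, 32.1 and 29.1 CPM in control. Cre 3 was the highest library and cre 1 the lowest, so that the log2 fold change was -0.01 (SE 0.16, edgeR adjusted p 1) by the labels and -0.28 (SE 0.10, adjusted p 0.376) in the 4 libraries. *Sox3* had 107, 113 and 132 CPM in cre against 94.2, 108 and 142 CPM in control. *Sox21*, a SOXB2 factor that counteracts SOXB1 activity, had 63.9, 69.5 and 73.5 CPM in cre against 44.4, 69.7 and 53.4 CPM in control (log2 fold change 0.30, SE 0.15, edgeR adjusted p 1). The predicted gene *Gm4675* shares 18.8% of the *Sox21* exon length on the opposite strand and had 57 to 89 counts per library. The SOXD factors *Sox5* and *Sox6*, which lack a transactivation domain and modulate other SOX proteins, had 95% intervals by the labels of -0.25 to 0.27 and -0.23 to 0.24.

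Among the POU-domain factors, nuclear receptors and REST, no gene was called by edgeR in either fit. Without the count filter *Pou3f2* and *Nr2f2* were called in the 4 libraries. That setting called 1325 of all 27761 tested genes, against 78 of 17003 with the filter. *Nr2f2* encodes COUP-TFII, an orphan nuclear receptor with a part in regional identity and in the timing of neural progenitors. *Nr2f2* (ENSMUSG00000030551, chr7:70351944-70366735) had 4.49, 7.57 and 5.65 CPM in cre 1, 2 and 3, against 0.879, 1.90 and 6.26 CPM in control 1, 2 and 3. The counts were 159, 222 and 182 in cre against 28, 64 and 212 in control. Controls 1 and 2 were below the other 4 libraries, and the library labelled control 3 was inside the cre range. The range from lowest to highest library was 8.61-fold, the widest of the 28 tested genes. By the labels the log2 fold change was 0.96 (SE 0.61, edgeR adjusted p 1). With the 4 libraries it was 2.10 (SE 0.41, 95% interval 1.12 to 3.09), with an adjusted p of 0.108 in edgeR and 0.000244 in DESeq2. DESeq2 called 478 of 17003 tested genes in these libraries. Its paralogue *Nr2f1*, COUP-TFI, had 47.1, 52.0 and 60.1 CPM in cre against 51.1, 54.8 and 47.1 CPM in control, with an interval of -0.18 to 0.30 by the labels.

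The windows upstream of *Nr2f2* and *Prom1* are shown because these genes had the largest positive differences of the panel in the 4 libraries. The order of their control libraries was shared with other members, among them *Sox3*, *Vim* and *Cd44*. The windows are again 250 bases before the RefSeq start (GRCm38.p6), 5′ to 3′ on the gene's strand, with CG dinucleotides in capitals.
Nr2f2 promoter, chr7:70366747-70366996, minus strand: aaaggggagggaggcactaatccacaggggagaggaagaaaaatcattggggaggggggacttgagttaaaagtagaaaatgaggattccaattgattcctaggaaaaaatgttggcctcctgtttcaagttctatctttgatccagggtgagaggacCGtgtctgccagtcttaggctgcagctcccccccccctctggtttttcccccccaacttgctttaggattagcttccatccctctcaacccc
Prom1 promoter, chr5:44094769-44095018, minus strand: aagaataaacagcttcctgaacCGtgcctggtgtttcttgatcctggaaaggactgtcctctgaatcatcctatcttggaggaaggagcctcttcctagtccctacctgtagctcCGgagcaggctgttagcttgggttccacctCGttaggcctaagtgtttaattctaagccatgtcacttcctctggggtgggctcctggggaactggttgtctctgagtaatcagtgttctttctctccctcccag
Prom1 promoter, chr5:44101737-44101986, minus strand: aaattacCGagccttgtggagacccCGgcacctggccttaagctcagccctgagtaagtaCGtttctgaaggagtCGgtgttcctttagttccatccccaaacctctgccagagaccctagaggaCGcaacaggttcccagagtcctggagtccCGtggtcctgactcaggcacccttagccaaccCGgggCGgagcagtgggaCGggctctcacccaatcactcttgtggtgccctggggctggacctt
The *Nr2f2* window holds 1 CG dinucleotide, and 7.87% of all windows hold fewer. The *Prom1* windows hold 3 and 9. The first *Prom1* window lies well inside the annotated span of the gene, so it may be intron sequence. Whether any of these windows acts as a promoter was not tested. AACAAT and the octamer ATGCAAAT, a core POU motif, are in none of these 3 windows, which says only that these letters are not there. Over the panel, 27 genes had 36 windows in the RefSeq table with a median of 11.5 CG dinucleotides, against 6 over all windows. AACAAT was in 3 of the 36 windows (*Hopx*, *Lrig1* and *Sox6*) and ATGCAAAT in 2 (both of *Hmga1*), where 9.42% and 1.6% of all windows hold them. The *Hmga1* windows overlap, so the same octamer may be counted in both. Whether the panel differs from all windows in these motifs was not tested.

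The class III POU genes encode partners of SOX2 on neural enhancers. *Pou3f2* (Brn2) had 28.3, 26.4 and 36.8 CPM in cre 1, 2 and 3, against 34.3, 37.1 and 30.5 CPM in control 1, 2 and 3. Cre 1 and 2 were below controls 1 and 2, and cre 3 was above control 1 and control 3. The log2 fold change of *Pou3f2* was -0.16 (SE 0.14, edgeR adjusted p 1) by the labels and -0.39 (SE 0.09, adjusted p 0.172) in the 4 libraries. *Pou3f3* (Brn1) had 203, 197 and 197 CPM in cre against 194, 210 and 280 CPM in control, where only control 3 stood apart. *Pou3f4* (Brn4) had 36.3, 35.5 and 40.0 CPM in cre against 39.4, 39.4 and 35.3 CPM in control. *Nr2e1* (Tlx), an orphan receptor that keeps adult NSCs dividing, had 24.6, 27.7 and 28.3 CPM in cre against 24.4, 27.7 and 27.5 CPM in control. Its interval by the labels was -0.20 to 0.23, and that of *Rest*, which encodes the repressor of neuronal genes, was -0.21 to 0.20.

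The LIN28 and HMGA genes, which promote progenitor self-renewal at fetal stages, gave no call in either fit. *Lin28a* had 0 counts in every library, which allows up to 0.0847 to 0.102 CPM per library (3 counts, counting error only), and *Lin28b* had 3, 0 and 1 counts in cre against 1, 0 and 4 in control. *Hmga2*, an architectural chromatin protein, had 47.6, 35.4 and 33.6 CPM in cre 1, 2 and 3, against 26.3, 44.6 and 69.0 CPM in control 1, 2 and 3. The control libraries were both the lowest and the highest, and the interval by the labels was -0.999 to 0.48. *Hmga1* had 21.8, 20.4 and 15.1 CPM in cre against 21.4, 23.2 and 18.9 CPM in control. *Hmga1* is uncertain because the near-identical *Hmga1b* is a separate row, at 31.1 to 40.3 CPM in cre and 34.1 to 45.6 CPM in control, and how reads with several matches were counted is not stated.

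The median variation between libraries was larger in the panel than over all tested genes, which were not matched to the panel for level. The coefficient of variation over the 6 libraries had a median of 14.1% for the 28 genes (3.22% in *Nes* to 58.2% in *Nr2f2*), and 11.003% over all tested genes. Control 1 was the lowest library for 14 of the 28 genes and control 3 the highest for 10, whereas cre 1 was the highest for 0. The same shares over all tested genes were not counted, so this order may not be particular to the panel. Groups did not overlap by the labels in 2 genes (*Lrig1* with cre above, *Hopx* with cre below), 7.14% of the 28, where 9.48% of all tested genes did not overlap. Among the 4 libraries 11 genes did not overlap, 39.3% of the 28, where 40.5% of all tested genes did not. In those, cre was above control for *Prom1*, *Lrig1*, *Nr2f2*, *Fut4* and *Cd44* and below it for *Nes*, *Sox1*, *Hopx*, *Cd9*, *Pou3f2* and *Pou3f4*. The panel was thus close to the background share in both fits.

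**Figure D4:**
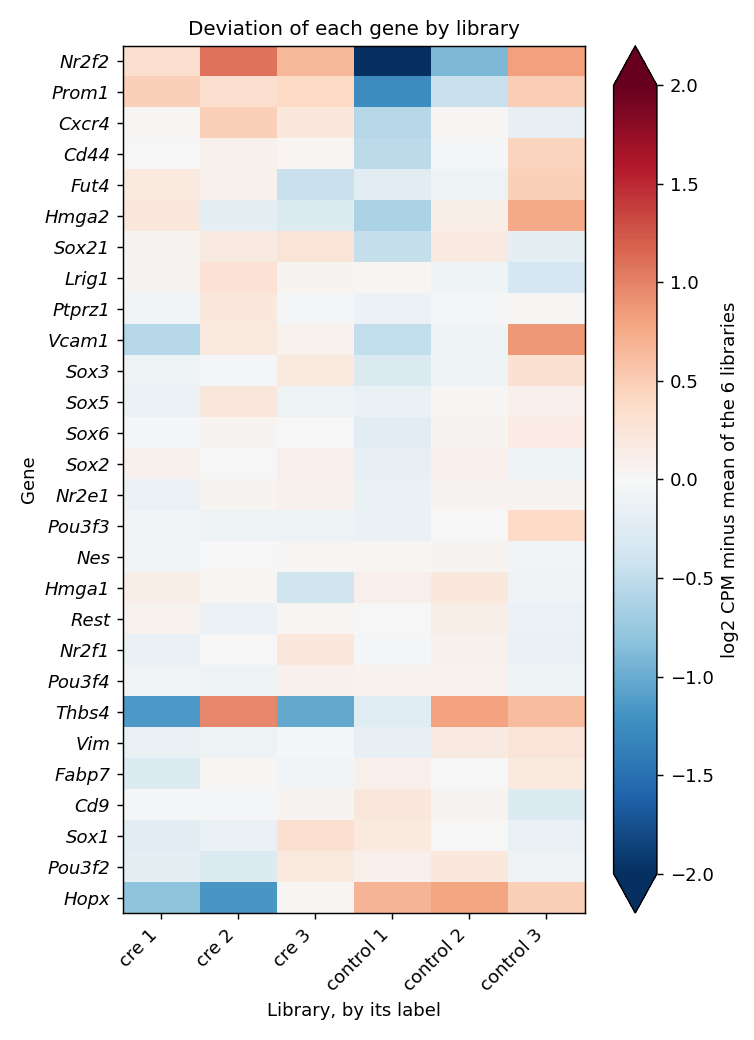
Deviation of each tested gene in each library from its mean over the 6 libraries, in log2 CPM, with cre libraries left of control and genes ordered by the fold change in the 4 libraries. Red is above and blue below the mean; *Nr2f2* and *Prom1* are lowest in control 1, *Hopx* is lowest in cre 1 and cre 2, and the library labelled control 3 is above the mean for *Vcam1*, *Hmga2* and *Nr2f2*.

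Genes that act with the panel were also read, and edgeR called none of them in either fit, where 0% by the labels and 0.459% in the 4 libraries of all tested genes were called. At an unadjusted p under 0.05 by the labels and in the 4 libraries, there were 1 and 1 of the other SOX genes, 2 and 4 of the LIN28 and let-7 axis, 0 and 0 of the REST corepressors, 6 and 8 of the partners of the surface proteins, and 3 and 3 of the other progenitor genes, where 5% and 11.2% of all tested genes were at that level. Of 13 other SOX genes, 6 were tested by the labels and 7 in the 4 libraries. In mean CPM, not scaled by length, the SOXE factor *Sox8* was the highest, at 146 to 220 CPM in cre and 153 to 200 CPM in control. The SOXC factor *Sox11* followed, at 165 to 182 CPM in cre and 148 to 189 CPM in control. Scaled by length, *Sox9* stood second at 35.8 CPM per kb, after *Sox8* at 55.0, with *Sox11* at 20.4. Of 11 genes of the LIN28 and let-7 axis 10 were tested. *Dicer1*, which processes miRNA precursors, had the highest mean CPM of these and an interval of -0.19 to 0.25 by the labels. Scaled by length, *Zcchc11* stood above *Dicer1* on average, at 7.46 against 6.36 CPM per kb. *Zcchc6*, a terminal uridylyltransferase of pre-let-7, had an interval of -0.08 to 0.22. All 11 REST corepressor genes were tested, led by the deacetylase *Hdac2* (-0.13 to 0.18) and the methyltransferase *Ehmt2* (-0.13 to 0.15). Of 21 genes for ligands, partners and relatives of the surface proteins 20 were tested. *Tnc*, a matrix ligand of PTPRZ1, had 1669, 1655 and 1237 CPM in cre against 1372, 1663 and 1701 CPM in control, and *Ptn*, pleiotrophin, had 1137, 1223 and 1486 CPM in cre against 1578, 1358 and 1185 CPM in control. Among the partners below an unadjusted p of 0.05, *Ackr3* and *Has2* had the smallest p-values by the labels and are named after their values were seen. *Ackr3*, a scavenging receptor for CXCL12, had 16.3, 18.3 and 21.2 CPM in cre against 6.40, 10.2 and 11.5 CPM in control, with a log2 fold change of 0.99 (SE 0.21, edgeR adjusted p 0.685) by the labels and 1.06 (SE 0.22, adjusted p 0.115) in the 4 libraries. *Has2*, a hyaluronan synthase, had 1.30, 1.16 and 0.963 CPM in cre against 2.54, 3.00 and 1.95 CPM in control, with a log2 fold change of -1.13 (SE 0.25, edgeR adjusted p 0.685) by the labels and -1.17 (SE 0.27, adjusted p 0.158) in the 4 libraries. Groups did not overlap by the labels for either gene, where 9.48% of all tested genes did not overlap. All 24 other progenitor genes were tested. The glutamate transporter gene *Slc1a3* had 824, 996 and 920 CPM in cre against 1623, 961 and 696 CPM in control, and *Olig2*, a factor of dividing progenitors, had an interval of -0.03 to 0.26 by the labels.

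Markers of other cell types were read beside the panel, and their part in the results was not tested. By the labels edgeR called 0 of the tested markers of any type. With the 4 libraries it called *Gfap*, the astrocyte filament and the gene whose promoter drives cre, which had 3.84, 3.51 and 0.280 CPM in cre 1, 2 and 3, against 0.502, 0.327 and 6.61 CPM in control 1, 2 and 3 (log2 fold change 3.14, SE 0.33, adjusted p 0.0206). *Gfap* thus followed the same division of the libraries as *Tet3*, with cre 3 low and control 3 high. According to the paper, the cassette that carries cre also holds the introns and nearly all exon sequence of *Gfap*. Reads of that cassette could count as *Gfap*, and how much of the *Gfap* level came from the cassette was not tested. *Gfap* was 1 of 12 tested of 13 astrocyte markers, whose summed level was 1223 to 1723 CPM in cre and 1474 to 1628 CPM in control, with *Gjb6* at 0. At an unadjusted p under 0.05 there were 3 astrocyte markers by the labels and 4 in the 4 libraries, and they differed in direction. *Slc1a2*, a glutamate transporter gene named after its values were seen, had 183, 233 and 190 CPM in cre against 69.8, 119 and 150 CPM in control (log2 fold change 0.84, SE 0.25, edgeR adjusted p 0.841 by the labels). Its groups did not overlap by the labels, where 9.48% of all tested genes did not. *Aldh1l1* had 125, 351 and 420 CPM in cre against 509, 433 and 400 CPM in control, and *Clu* had 6.35, 7.09 and 6.24 CPM in cre against 9.07, 8.13 and 13.1 CPM in control. *Aldoc* had a log2 fold change of 0.65 (SE 0.10, edgeR adjusted p 0.0599) in the 4 libraries and 0.18 by the labels. That of *Fgfr3* was 0.48 (SE 0.17, edgeR adjusted p 0.969) by the labels. *S100b*, the paper's marker of terminally differentiated astrocytes, had 18.0, 22.7 and 12.4 CPM in cre. In control it had 17.6, 19.6 and 42.0 CPM, so the groups overlapped. The 9 neuroblast and neuron markers (5 tested) summed to 1044 to 1248 CPM in cre and 1024 to 1406 CPM in control, nearly all of it *Map2*; *Gad1* had at most 35.8 CPM in cre and 24.0 CPM in control, and *Dlx6* was at 0. The 8 oligodendrocyte lineage markers (6 tested) summed to 197 to 290 CPM in cre and 210 to 256 CPM in control, mainly *Cspg4* and *Cnp*. The 6 ependymal markers (2 tested, *Foxj1* and *Rsph1*) summed to 21.2 to 23.6 CPM in cre and 15.5 to 18.98 CPM in control, and *Foxj1*, at 20.0 to 22.8 CPM in cre against 14.6 to 17.9 CPM in control, had an edgeR adjusted p of 0.800 by the labels, with *Tmem212* at 0. Microglial markers (1 of 6 tested) summed to 0.217 to 1.27 CPM in cre and 0.207 to 0.712 CPM in control, and the highest on average, *P2ry12*, stayed at or under 0.564 CPM, with *Csf1r* at most 0.847 CPM. Endothelial and mural markers (5 of 9 tested) summed to 10.3 to 15.3 CPM in cre and 3.55 to 14.4 CPM in control, with the highest means in *Flt1* at 2.61 to 8.12 CPM in cre and 0.283 to 10.03 CPM in control and *Acta2* at 0.853 to 5.56 CPM in cre and 1.26 to 2.94 CPM in control. Cre 1 held 5.39 CPM of *Col1a1*, above *Flt1* in that library, where the other 5 libraries had at most 0.649 CPM, and it was also the highest library for *Pecam1*, *Pdgfrb* and *Csf1r*.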

How the data were processed

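Total RNA of 3 *Tet3-Gfap cre* and 3 *Tet3-Gfap control* neurosphere samples was sequenced with a stranded poly(A) kit. The deposited values are raw read counts per Ensembl gene, made by the authors with Subread on GRCm38.p5 and Rsubread; versions and the strand, overlap and multi-mapping settings are not given in the sources used here. Of 49671 gene rows, 345 had no symbol. The counts were tested with edgeR 4.0.16 (R 4.3.3): filterByExpr, TMM factors, quasi-likelihood F test, Benjamini-Hochberg over all tested genes. The SE was derived from the F statistic. CPM used TMM-scaled totals, and lengths were merged exons of GENCODE M21 on GRCm38, a later release than the counting annotation. Alternatives were DESeq2 1.42.0, limma-voom (limma 3.58.1), RLE factors, no filter, a 1 CPM minimum in place of filterByExpr, a replicate block and leaving out each library. The code was tested on simulated data. The members, the lists and the 4-library fit were chosen with earlier results of these data known. Full statistics were given for genes past the threshold and for the 6 smallest p-values in each fit. Of other lists, called genes or the 2 with the highest mean CPM were named.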

Additional observations from a re-analysis of the deposited data

How the results depend on the processing

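By the labels, edgeR called 0 of the 28 genes under every edgeR setting, leaving out any 1 library included; limma-voom called 0 and DESeq2 called 1 (*Hopx*, adjusted p 0.0224). Over all genes the count of calls by the labels was 0, with 70 in DESeq2, 3 without a filter and 0 to 18 when 1 library was left out. In the 4 libraries 1 gene of the panel was called, with 3 in DESeq2, 6 without a filter (*Prom1*, *Hopx*, *Pou3f2*, *Nr2f2*, *Cd44* and *Cxcr4*), 2 with the replicate block and 0 to 1 when 1 library was left out. *Hopx* stayed lower in cre in all fits, at -1.90 to -1.54 log2 units in the 4 libraries and an adjusted p of 3.31e-11 to 0.0746. *Prom1* and *Nr2f2* had adjusted p-values of 7e-11 to 0.224 and 2.12e-12 to 0.203 there. Over all genes the 4 libraries gave 78 calls, with 478 in DESeq2, 1325 without a filter, 169 with the replicate block and 59 to 297 when 1 library was left out. A fit without a library in the 4 libraries leaves 1 sample in a group, assumed to vary like the others. The median log2 fold change of the panel there ran from -0.074 to 0.16 when 1 library was left out. The cause of these changes was not tested.

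Replicate numbers did not pair the samples: deviations of same-numbered libraries correlated at -0.0841, 0.0436 and -0.0169 by the labels. With the replicate block 2 genes of the panel were called in the 4 libraries, *Hopx* (adjusted p 0.0283) and *Nr2f2* (0.0211), and 0 by the labels.

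Directions of small log2 fold changes turned in a few settings. By the labels *Cd9* was 0.0022 in limma-voom and 0.0008 with the replicate block, and *Sox6* was -0.0018 without a filter. In the 4 libraries *Nr2e1* was -0.0014 in limma-voom and -0.0067 without a filter. When 1 library was left out, the values that crossed 0 by the labels were *Sox1* -0.20 to 0.0904, *Sox3* -0.0875 to 0.21, *Sox5* -0.10 to 0.072, *Sox6* -0.10 to 0.0834, *Nr2e1* -0.0406 to 0.0767, *Vcam1* -0.54 to 0.21, *Cd9* -0.14 to 0.11, *Ptprz1* -0.0128 to 0.13, *Pou3f4* -0.0855 to 0.0048, *Nr2f1* -0.0421 to 0.14, *Rest* -0.0657 to 0.0565, *Hmga2* -0.54 to 0.13, *Fut4* -0.25 to 0.12, *Cd44* -0.17 to 0.31. In the 4 libraries they were *Sox2* -0.0653 to 0.20, *Sox5* -0.062 to 0.27, *Sox6* -0.0456 to 0.23, *Sox21* -0.0659 to 0.58, *Vim* -0.31 to 0.0253, *Nr2e1* -0.0867 to 0.0929, *Thbs4* -1.53 to 0.58, *Vcam1* -0.29 to 0.47, *Pou3f3* -0.0702 to 0.0397, *Rest* -0.19 to 0.006, *Hmga2* -0.10 to 0.66. Counts were low for *Thbs4*, *Fut4*, *Lin28a* and *Lin28b*.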

Other observations

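The long non-coding RNA *Sox2ot* (chr3:34104270-34682619 of GRCm38), within whose span *Sox2* lies, was chosen after its values were seen. It had 56.7, 62.2 and 50.6 CPM in cre 1, 2 and 3, against 6.59, 25.7 and 78.2 CPM in control 1, 2 and 3. The range from lowest to highest library was 11.9-fold for *Sox2ot*, where that of *Sox2* was 1.21-fold. The log2 fold change of *Sox2ot* was 0.62 (edgeR adjusted p 1) by the labels and 1.87 (SE 0.50, edgeR adjusted p 0.207) in the 4 libraries. Control 1 was the lowest and control 3 the highest library for *Sox2ot*, as for *Prom1*.

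*Emx2*, a homeobox gene of forebrain progenitors, was also chosen after its values were seen, and had 47.4, 44.3 and 37.2 CPM in cre 1, 2 and 3, against 16.0, 24.5 and 37.1 CPM in control 1, 2 and 3. Its log2 fold change was 0.73 (SE 0.27, edgeR adjusted p 0.972) by the labels and 1.18 (SE 0.19, edgeR adjusted p 0.0701) in the 4 libraries.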
